A study of Sus scrofa with 45 samples.

Results

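CXCR1, CXCR2, MMP9, LTF and PGLYRP1 are genes by which neutrophils are often recognised in blood. Their probes were chosen as all gene probes of a porcine array whose name, accession or description names 1 of the 5 genes, with IL8RA and IL8RB read as older names of CXCR1 and CXCR2. This gave 5 probes, 1 for each gene, of 43603 probes in all, and 5 of the 1797 genes that could be named. A further probe with the annotation pPGRP-S (A_72_P165501), a name that PGLYRP1 shares, was counted as PGLYRP4 through a synonym, which is uncertain. It was well above background on 1 of 45 arrays.

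Neutrophils leave the bone marrow packed with ready-made granules and travel to sites of infection along gradients of chemokines. CXCR1 and CXCR2 are the surface receptors that read CXCL8 and related chemokines. Gelatinase granules carry MMP9, specific granules carry the iron-binding protein LTF (lactotransferrin), and PGLYRP1 is a granule protein that binds bacterial peptidoglycan. Much of the granule content is made before the cells reach the blood, so the RNA of a granule protein in blood and the protein itself need not go together.

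The study fed male Clawn miniature pigs, 12 weeks old at the start, 1 of 3 diets and measured RNA in blood on single-colour Agilent arrays. The diets were a control diet, a diet rich in fat and cholesterol (HFCD) and the same kind of diet with added sucrose (HFCSD). Whole blood was taken into PAXgene tubes after 10, 19 and 27 weeks of feeding, and at 27 weeks white blood cells were also caught on LeukoLock filters. The comparisons ask whether a diet, the length of feeding or the kind of blood sample goes with a different level of RNA.

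The 45 arrays fall into 12 groups. Whole blood at 10 weeks has 4 arrays each of control, HFCD and HFCSD. Whole blood at 19 weeks has 4 of control, 4 of HFCD and 3 of HFCSD, and whole blood at 27 weeks has 4 of control, 3 of HFCD and 3 of HFCSD. White blood cells at 27 weeks have 4 arrays of each diet. The labels number the males within each group, and these were taken as separate animals. They do not say whether the same number in another week or sample type marks the same animal, so arrays were not paired. With 5 pigs for each diet in the study's methods, animals must recur across weeks and sample types, and tests across these treat their arrays as independent. The small number of arrays limits the precision.

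Levels are given as log2 of the processed intensity after quantile normalization over the 45 arrays, so that 1 unit is a doubling. A spot is called present where the scanner software marks it as well above its background. Present spots made up 35.4% to 53.3% of an array, with a median of 43.9%. Probes bind with different strength, so a higher signal of one probe than of another is not read as more RNA, and a sum over a list follows its strongest signals. Where groups are said not to overlap, the share of all probes that do so is not given, and this describes the arrays only.

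The kind of sample and the feeding period go with the day of scanning. All 10-week arrays were scanned on 1 day, the whole blood of 27 weeks on another and the white blood cells on another again. At 19 weeks, control replicates 2, 3 and 4 were scanned on a different day from control replicate 1 and both diet groups. White blood cells and whole blood also differ in the kit used to preserve the RNA, so sample type, kit and scan day cannot be told apart.

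The probe sequences show what each value rests on. The last 30 bases of each probe are printed below, 5′ to 3′, with the polyadenylation signal AATAAA in capitals where it occurs.
CXCR1: cagagtcaaaatactaaatgccaggcctaa
CXCR2: tatcccctggttctgattaataagactgag
MMP9: tggaacttttggAATAAActtggattcttt
LTF: agaAATAAAattagaaattctgccgaattc
PGLYRP1: ccagaaatggccacactaccgcgcctgagc
The MMP9 and LTF probes hold the signal in this stretch, as do 9.35% of all probes on the array. The GC content of the full 60-base probe was 55% for PGLYRP1, 45% for CXCR2, 43.3% for MMP9, and 36.7% for both CXCR1 and LTF, against a median of 40% over all probes. The CXCR1 probe is named through similarity to the gorilla gene over a small part of its length, so its identity is the least certain of the 5.

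The receptor CXCR1 was near background. Its probe A_72_P056431 was well above background on 6 of 45 arrays, at 3.95 and 3.63 in 10-week HFCD replicates 1 and 4, 3.88 in 10-week HFCSD replicate 3, 3.99 in 19-week control replicate 4, 4.03 in 27-week control replicate 2 and 3.77 in white blood cell control replicate 3. In no group was it above background on every array, so it entered no test. Group means ran from 3.65 ± 0.24 (SD, n = 4) in 10-week HFCD whole blood to 1.63 ± 0.32 (SD, n = 4) in HFCD white blood cells. The 3 white blood cell groups held the lowest places, with control at 2.20 ± 1.12 and HFCSD at 2.08 ± 0.59, but no step between neighbours in the order of the 12 groups was larger than the spread. At such intensities a difference in CXCR1 was not detectable.

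The other receptor, CXCR2, was bright on all 45 arrays through probe A_72_P214947. CXCR2 in whole blood at 10 weeks was at 13.47, 12.32, 12.93 and 13.10 with the control diet, 12.71, 12.58, 13.10 and 13.49 with HFCD, and 12.50, 12.26, 12.68 and 13.38 with HFCSD. The 3 groups overlapped. At 19 weeks CXCR2 was at 13.22, 13.34, 13.72 and 12.84 in control whole blood, 11.93, 12.43, 13.19 and 11.25 with HFCD, and 13.20, 12.35 and 10.91 with HFCSD. Here the lowest arrays all belonged to the diet groups, while 1 array of each diet reached the control range. At 27 weeks CXCR2 was at 14.23, 13.85, 13.74 and 12.43 in control whole blood, 13.25, 13.76 and 13.37 with HFCD, and 12.82, 13.58 and 12.21 with HFCSD. In white blood cells it was at 14.81, 13.38, 13.25 and 12.91 for control, 13.18, 13.75, 13.83 and 12.73 for HFCD, and 13.05, 12.28, 13.89 and 13.20 for HFCSD. Control replicate 1 was the highest in both kinds of 27-week control sample, and the white blood cells covered much the same range as whole blood.

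Ordered by mean, CXCR2 was highest in control white blood cells (13.59 ± 0.84, SD, n = 4) and 27-week control whole blood (13.56 ± 0.78, n = 4). It was lowest in 19-week whole blood with HFCD (12.20 ± 0.82, n = 4) and HFCSD (12.15 ± 1.15, n = 3). No neighbours in this order differed by more than their spread. The mean of CXCR2 was lower than control in 7 of 8 diet comparisons, by −1.13 to 0.02 on the log2 scale, with the exception, 10-week HFCD, at −0.12 when arrays were scaled to their 75th percentile instead. Both diets share each control group, so these comparisons are not independent. The small 27-week differences with HFCD turned without control replicate 1, to 0.12 in whole blood and 0.19 in white blood cells. Both differences at 19 weeks were the largest of these, −1.08 (SE 0.50, adjusted p = 0.403, limma) with HFCD and −1.13 (SE 0.54, adjusted p = 0.434) with HFCSD, and neither passed. On the scan day that holds all diet arrays but only control replicate 1, they were −1.02 and −1.07. At 27 weeks the HFCSD difference in whole blood was −0.69 (SE 0.43, adjusted p = 0.279, limma), and 0.03 (SE 0.51) when the share of present spots was a covariate.

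Of the ligands of these receptors, CXCL8 and CXCL2 were above background on every white blood cell array and on at most 2 whole blood arrays of a diet at 27 weeks. Of 6 listed chemokine genes 4 were on the array with 5 probes. Both CXCL8 and CXCL2 entered the tests only through the white blood cells, so no count or median of this list is given. Their adjusted p values come from tests chosen by the group where these genes are high and support no conclusion. CXCL8, the main ligand of both receptors, was 6.01 higher on the log2 scale in control white blood cells (adjusted p = 0.000118, limma). This value is not exact, since 2 of 4 whole blood arrays were above background. In HFCD CXCL8 was at least 45.1-fold higher (adjusted p = 0.000107, limma) and in HFCSD at least 42.6-fold higher (adjusted p = 7.55e-06, limma). These are bounds because 0 of 3 whole blood arrays of either diet were above background. CXCL2, another ligand of CXCR2, was 5.91 higher in control (adjusted p = 0.00103, limma) by probe A_72_P146411. That value is not exact either, with 2 of 4 whole blood arrays above background. CXCL2 by this probe was at least 78.6-fold higher in HFCD and at least 42.9-fold higher in HFCSD. Its other probe, A_72_P343693, gave lower bounds of at least 7.98-fold in control, 12.7-fold in HFCD and 4.42-fold in HFCSD. PPBP, a platelet-derived ligand, differed by 0.32, 0.96 and 1.20 and passed in no diet (lowest adjusted p = 0.447, limma). CXCL6 was above background on 0 of 45 arrays. As log2 of the summed intensity of its genes, the list stood at 10.61 ± 0.49, 8.96 ± 0.50 and 9.33 ± 2.04 in control, HFCD and HFCSD whole blood of 27 weeks, and at 12.56 ± 0.36, 12.24 ± 1.08 and 12.21 ± 0.62 in white blood cells, with PPBP giving the strongest signal. With the control diet 1 to 3 of its genes were above background on a whole blood array, and 1 with HFCD or HFCSD. White blood cell arrays had 3, so these sums are not read as a change.

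MMP9, the gelatinase of tertiary granules, was also well above background on all 45 arrays (probe A_72_P303264). At 10 weeks MMP9 was at 14.32, 13.54, 12.88 and 13.07 in control whole blood, 13.26, 13.76, 12.84 and 12.83 with HFCD, and 13.24, 14.68, 13.07 and 12.89 with HFCSD. The groups overlapped, and the highest value was that of HFCSD replicate 2. MMP9 at 19 weeks was at 13.09, 13.89, 13.54 and 13.39 in control whole blood, 12.80, 13.41, 13.45 and 12.90 with HFCD, and 12.67, 13.43 and 11.83 with HFCSD. One HFCSD array, replicate 3, lay far below the control range, and the groups overlapped. At 27 weeks MMP9 in whole blood was at 13.26, 13.08, 13.76 and 12.15 with the control diet, 13.34, 13.67 and 13.34 with HFCD, and 13.08, 12.38 and 12.81 with HFCSD. All HFCSD arrays were below all HFCD arrays, while both lay within the control range. In white blood cells MMP9 was at 13.07, 12.73, 13.84 and 13.55 for control, 14.51, 14.13, 14.26 and 13.72 for HFCD, and 14.18, 13.53, 12.76 and 13.40 for HFCSD. Of the HFCD arrays 3 were above every control array, and HFCD replicate 4 was within the control range.

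In the order of the 12 groups, HFCD white blood cells came highest for MMP9 (14.15 ± 0.33, SD, n = 4), a step of 0.68 above 19-week control whole blood (13.48 ± 0.33, n = 4) that exceeded the spread. Every later step was within it, down to 12.76 ± 0.35 (n = 3) in 27-week and 12.64 ± 0.80 (n = 3) in 19-week HFCSD whole blood. Between HFCD and control white blood cells the difference was 0.85 (SE 0.32, adjusted p = 0.978, limma). Within the 3 slides that hold both groups it was 0.29 to 1.38, higher in 3 of 3, and with the slide as a block 0.96 (SE 0.29, adjusted p = 0.791, limma). At 19 weeks the HFCSD difference from control was −0.83 (SE 0.37, adjusted p = 0.407, limma), and −0.44 (SE 0.55) with scan day as a block. The 27-week difference of HFCSD from HFCD, whose arrays did not overlap, was −0.69 (SE 0.37, adjusted p = 0.422, limma). It was −0.96 within the 1 slide that holds both, −1.20 (SE 0.38, adjusted p = 0.331, limma) with the slide as a block, and −0.17 (SE 0.43) with the share of present spots as a covariate.

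LTF, the lactotransferrin of specific granules, was well above background on all 45 arrays (probe A_72_P088736), with single arrays far above their group. LTF at 10 weeks was at 9.96, 12.82, 7.98 and 10.13 in control whole blood, 10.20, 10.28, 9.91 and 10.73 with HFCD, and 10.16, 13.04, 9.86 and 11.06 with HFCSD. The control group alone held nearly the whole range, from replicate 3 at the bottom to replicate 2 near the top. At 19 weeks LTF was at 12.50, 9.43 and 10.84 in control replicates 1 to 3, between the last 2 of these in replicate 4, 11.64, 11.14, 10.45 and 11.77 with HFCD, and 10.99, 12.66 and 10.97 with HFCSD. Control replicate 1, the only control array scanned with the diet groups, was among the highest. At 27 weeks LTF was at 12.59, 9.89, 9.90 and 10.20 in control whole blood, 11.46, 10.98 and 11.50 with HFCD, and 10.81, 11.86 and 11.46 with HFCSD. White blood cells had LTF at 12.60, 9.37, 10.20 and 10.59 for control, 11.28, 11.80, 11.16 and 11.33 for HFCD, and 11.07, 10.96, 11.87 and 11.52 for HFCSD. In both kinds of 27-week sample, control replicate 1 was above every diet array and the other control arrays were below every diet array.

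LTF means ran from 11.54 ± 0.97 (SD, n = 3) in 19-week HFCSD whole blood to 10.22 ± 1.99 (n = 4) in 10-week control whole blood, and no step between neighbours exceeded the spread. The mean was above control in 8 of 8 diet comparisons, by 0.06 to 0.81, and 0 of 8 passed (lowest adjusted p = 0.397, limma). Both diets share each control group, so an agreeing direction is not 8 independent results. This direction turned at 19 weeks with scan day as a block, where control replicate 1 alone stands for control, to −1.24 (SE 0.75) for HFCD and −0.96 (SE 0.77) for HFCSD from 0.44 and 0.72, and at 10 weeks for HFCD, from 0.06 to −0.11 with the share of present spots as a covariate. With the slide as a block the same 3 differences were −1.35, −1.10 and −0.13. It also turned for 10-week HFCD without control replicate 3 (−0.69), control replicate 1 (−0.03) or HFCD replicate 4 (−0.09), and for 19-week HFCD without control replicate 2 (−0.03). At 27 weeks in whole blood the HFCSD difference was 0.73 (SE 0.59), and 1.26 (SE 0.67, adjusted p = 0.207, limma) with the slide as a block, 1.24 and 1.97 within the 2 slides that hold both groups.

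PGLYRP1, the peptidoglycan recognition protein, was well above background on all 45 arrays (probe A_72_P232762). Its 12 group means had the widest range of the 5 genes, through the white blood cells. Over the 9 whole blood means its range was 1.22, against 1.41 for CXCR2, 1.32 for LTF and 0.83 for MMP9. PGLYRP1 at 10 weeks was at 10.15, 10.82, 9.79 and 9.99 in control whole blood, 8.52, 10.91, 9.02 and 7.50 with HFCD, and 10.52, 10.85, 9.42 and 9.22 with HFCSD. Of the HFCD arrays 3 were below every control array and replicate 2 was above them all. At 19 weeks PGLYRP1 was at 11.68, 9.38, 8.85 and 9.04 in control whole blood, 7.17, 11, 10.22 and 10.93 with HFCD, and 9.43, 9.39 and 8.19 with HFCSD. Control replicate 1 and HFCD replicate 1 marked the top and bottom of all whole blood, and the groups overlapped. At 27 weeks it was at 9.0, 8.03, 8.25 and 10.89 in control whole blood, 7.92, 10.47 and 8.93 with HFCD, and 10.66, 9.99 and 9.98 with HFCSD. The HFCSD arrays lay above 3 of 4 control arrays and below control replicate 4. In white blood cells PGLYRP1 was at 5.85, 4.97, 5.87 and 6.33 for control, 5.71, 6.47, 7.10 and 6.07 for HFCD, and 6.43, 5.81, 6.79 and 6.65 for HFCSD. Every white blood cell array was below every whole blood array of any week.

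Ordered by mean, PGLYRP1 fell into a whole blood range and a white blood cell range. Whole blood went from 10.21 ± 0.39 (SD, n = 3) in 27-week HFCSD and 10.19 ± 0.45 (n = 4) in 10-week control down to 9.01 ± 0.71 (n = 3) in 19-week HFCSD and 8.99 ± 1.43 (n = 4) in 10-week HFCD, without a step beyond the spread. A step of 2.57 then led to white blood cells with HFCSD (6.42 ± 0.44, n = 4), HFCD (6.34 ± 0.59) and control (5.75 ± 0.57), again without a step between neighbours beyond the spread.

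**Figure D1:**
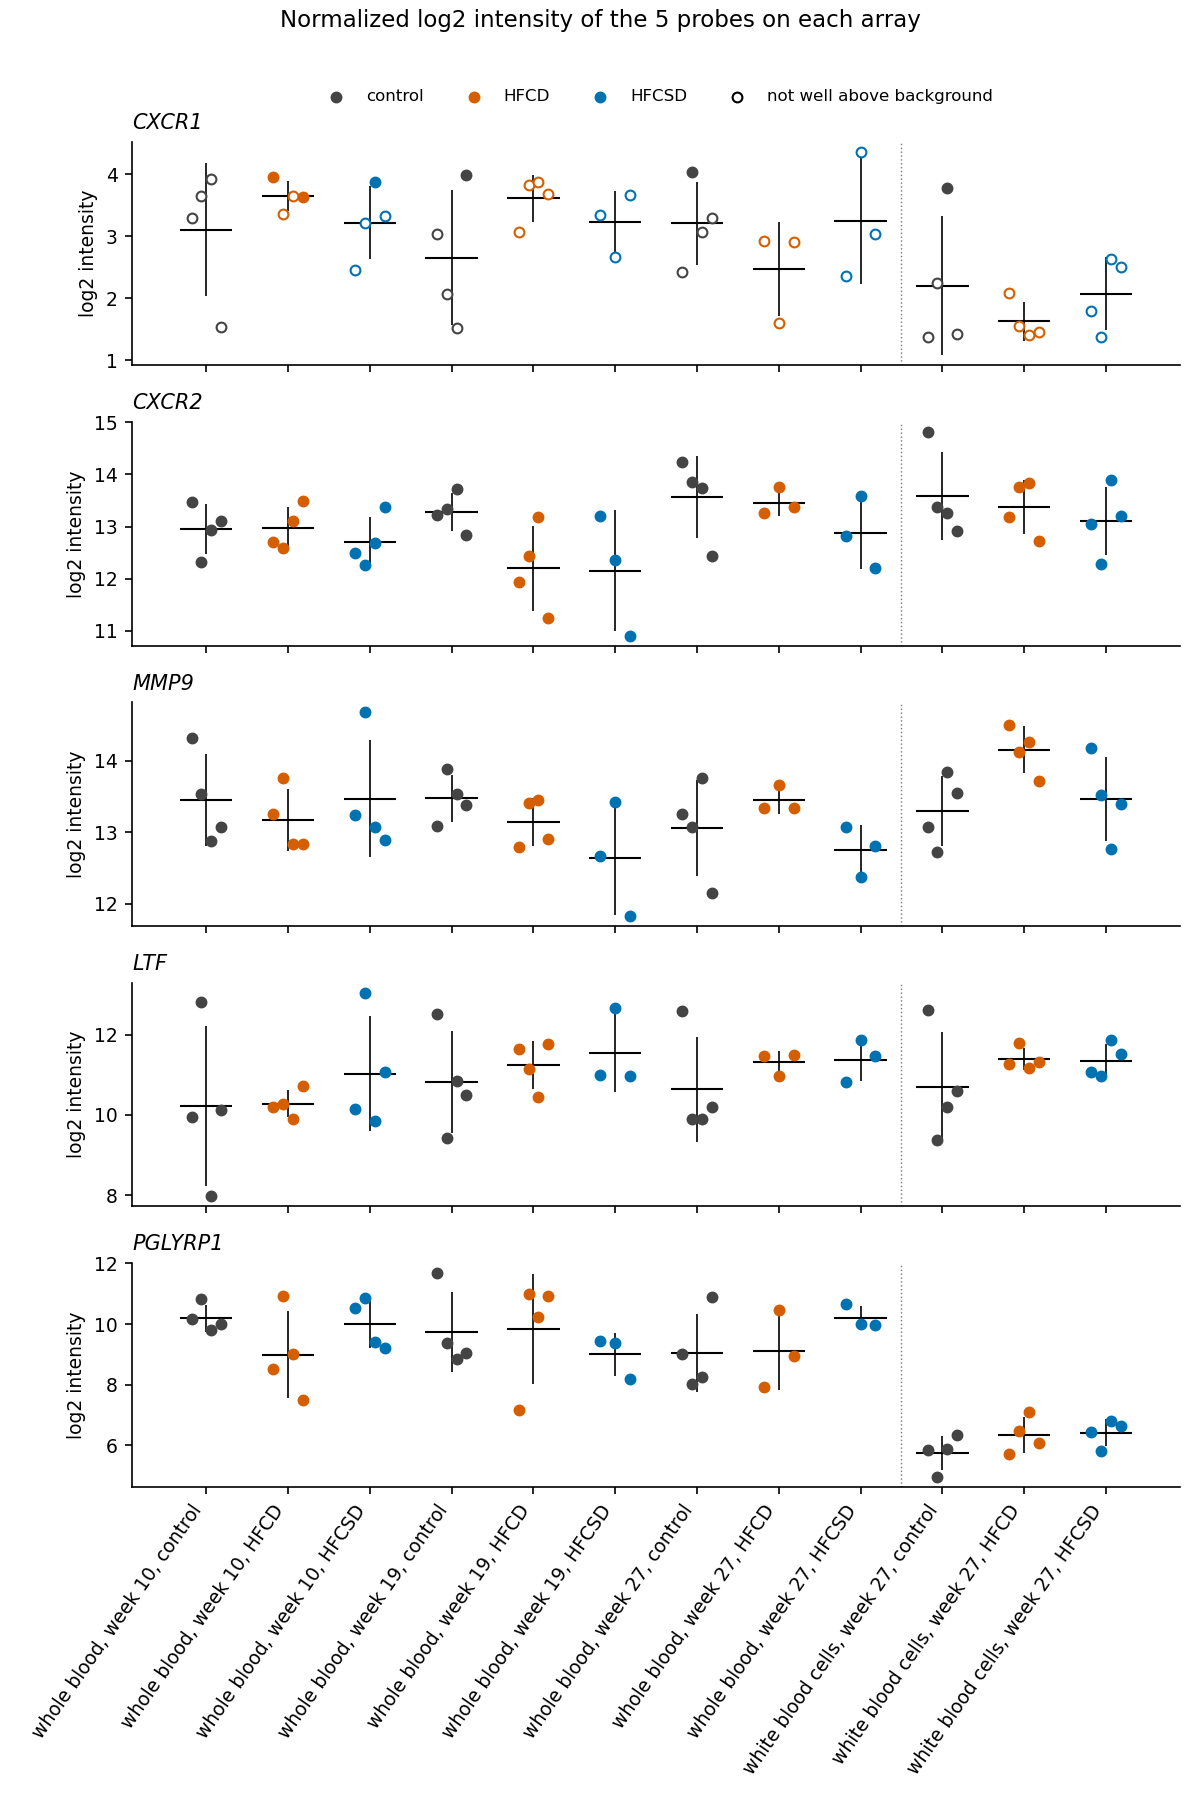
Level of each of the 5 genes (vertical axis, log2 normalized intensity) on every array of the 12 groups (horizontal axis), 1 panel for each gene, with points for arrays and bars for group means. PGLYRP1 in white blood cells lies between 4.97 and 7.10, under all whole blood arrays, while CXCR2, MMP9 and LTF cover like ranges in both kinds of sample.

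Set against whole blood, white blood cells differed most in PGLYRP1. It was 9.76-fold lower in white blood cells with the control diet (log2 −3.29, SE 0.55, adjusted p = 9.15e-05, limma), 6.81-fold lower with HFCD (−2.77, SE 0.59, adjusted p = 0.000943) and 13.8-fold lower with HFCSD (−3.79, SE 0.59, adjusted p = 3.43e-05, limma). The groups did not overlap in any diet, lower in 4 of 4 white blood cell arrays each time. Without whole blood replicate 4 the control value was −2.67, and the HFCD value was −2.09 without whole blood replicate 2 and −3.36 without replicate 1 (highest adjusted p = 0.0124, limma). In these samples fewer cells of a type and less RNA per cell cannot be told apart.

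MMP9 had a ratio of 1.18 in control (log2 0.24, SE 0.33, adjusted p = 0.577, limma), 1.63 in HFCD (0.70, SE 0.36, adjusted p = 0.111) and 1.64 in HFCSD (0.71, SE 0.36, adjusted p = 0.0944, limma). In HFCD the groups did not overlap, with white blood cells at 13.72 or more and whole blood at 13.67 or less. How many of all probes do the same is not given, so this is not read as particular to MMP9. Fitting only those 2 groups gave the same 0.70 with adjusted p = 0.0464 (limma), where 44.7% of all probes passed. This was the lowest adjusted p of 12 other settings, which ranged up to 0.190. In HFCSD, MMP9 passed without white blood cell replicate 3, at 0.95 (adjusted p = 0.0351, limma), where 53.8% of all probes passed. For control it was −0.06 without whole blood replicate 4.

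CXCR2 had ratios of 1.02, 0.940 and 1.18 in control, HFCD and HFCSD (log2 0.03, −0.09 and 0.24, SE 0.44 to 0.48, lowest adjusted p = 0.688, limma). Those of LTF were 1.03, 1.06 and 0.985 (log2 0.04, 0.08 and −0.02, SE 0.57 to 0.62, lowest adjusted p = 0.923, limma). Neither gene has a settled direction here. With arrays scaled to their 75th percentile, CXCR2 in HFCD was at 0.21 and LTF in HFCSD at 0.25, and with another background correction (normexp) LTF in HFCD was at −0.04. CXCR1 has no ratio, since it was near background in both kinds of sample.

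Counted together, 3 of 12 tests of white blood cells against whole blood passed, 1 of 4 probes in each diet and each time PGLYRP1. The share of all probes tested that passed was 45.3% in control, 47.5% in HFCD and 58.8% in HFCSD, so a passing probe is common in this contrast. The median change of the 4 tested probes was 0.04 in control, −0.00 in HFCD and 0.11 in HFCSD, beside 0.17, 0.19 and 0.42 over all probes tested. These medians over all probes were 0.30, 0.38 and 0.50 with 75th percentile scaling. Relative to either shift PGLYRP1 was lower by a wide margin.

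Whether the ratio differed between diets was tested as the difference of differences. For PGLYRP1 this was 0.52 for HFCD against control (SE 0.81, adjusted p = 1.000, limma) and −0.51 for HFCSD (SE 0.81, adjusted p = 0.753). The first turned to −0.06 (SE 0.51) with the share of present spots as a covariate, and the second to 1.14 (SE 0.58, adjusted p = 0.476, limma), while with the slide as a block the second was −1.36 (SE 0.65, adjusted p = 0.232, limma). MMP9 gave 0.46 (SE 0.49) and 0.47 (SE 0.49, adjusted p = 0.611, limma), CXCR2 −0.12 and 0.21 (SE 0.65), and LTF 0.04 and −0.07 (SE 0.84). CXCR2 turned too with that covariate, to 0.10 and −0.39, and for HFCD with the slide as a block, to 0.07. By limma 0 of 8 passed, with 0 of 8 at an unadjusted p under 0.05, where 0% of all probes passed for HFCD and 1.38% for HFCSD. So the different folds of PGLYRP1 among diets were not shown to differ.

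**Figure D2:**
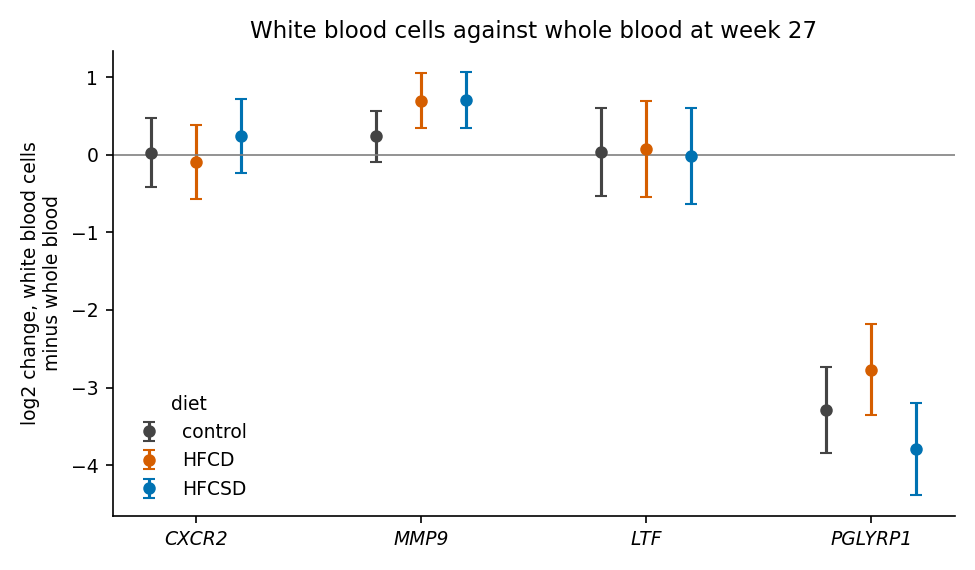
Difference of white blood cells from whole blood at 27 weeks (log2, with SE) for CXCR2, MMP9, LTF and PGLYRP1 in each diet, points for the 3 diets and a line at 0. PGLYRP1 lies between −3.79 and −2.77, and the other 3 genes between −0.09 and 0.71. Under 75th percentile scaling the sign turns for CXCR2 in HFCD and for LTF in HFCSD.

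At 27 weeks the level of PGLYRP1 in whole blood was mostly higher on arrays with a lower share of present spots. In these samples, the 4 arrays with a share of 38.8% to 39.7%, which are the 3 HFCSD arrays and control replicate 4, had PGLYRP1 at 9.98 to 10.89. The 6 arrays with a share of 43.6% to 50.2% had it at 7.92 to 10.47, so the ranges overlapped. At 19 weeks arrays departed from this, such as HFCSD replicate 3 (38%, at 8.19) and HFCD replicate 1 (43.5%, at 7.17). The 12 white blood cell arrays, with a like share of 43.4% to 50.9%, had it at 4.97 to 7.10. With this share as a covariate the ratio was −2.96 in control (adjusted p = 2.17e-06, limma), −3.02 in HFCD (adjusted p = 3.30e-06) and −1.82 in HFCSD (SE 0.50, adjusted p = 0.0111, limma). In HFCSD the share was 38.8% to 39.7% in whole blood and 46.1% to 48.6% in white blood cells, without overlap, so the last value is extrapolated. This limits every value given for 27-week HFCSD whole blood with that covariate. Adjusted p over the 12 other settings stayed at or under 0.0187, 0.0377 and 0.0111 in the 3 diets. With normexp background correction the ratio was −2.16 in control, −1.94 in HFCD and −2.87 in HFCSD. The part of the share in these values was otherwise not tested.

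**Figure D3:**
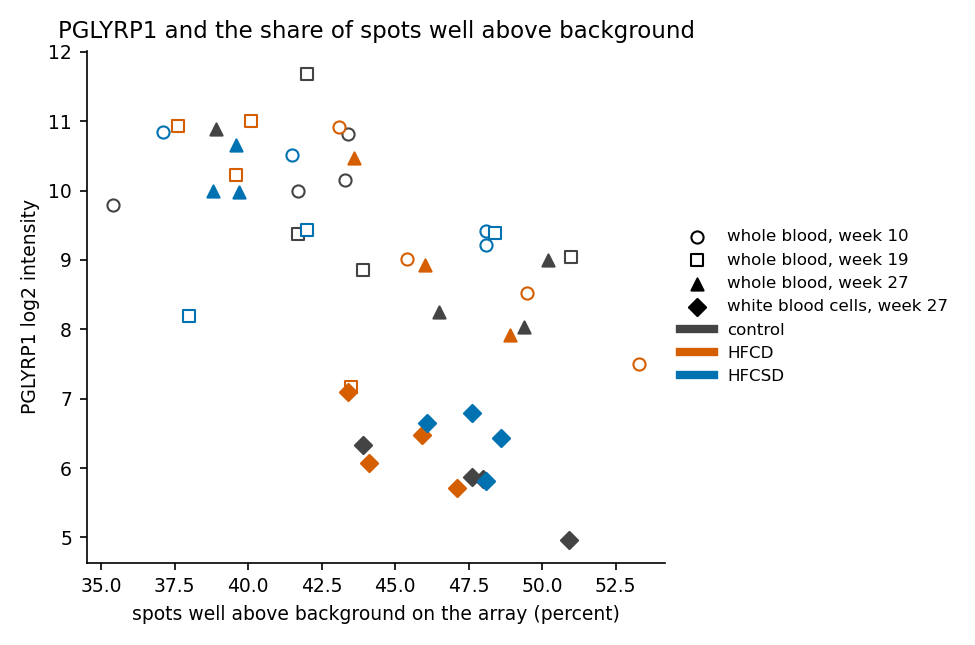
PGLYRP1 level (vertical axis, log2 normalized intensity) against the share of present spots (horizontal axis, percent) for each of the 45 arrays. Colours mark the diet, and marker shapes the sample type and feeding period. At like shares of 43.4% to 50.9%, the 12 white blood cell arrays lie at 4.97 to 7.10 and 6 whole blood arrays of 27 weeks at 7.92 to 10.47.

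Among diets, no tested probe of the 5 genes passed. Of 32 tests of a diet against control, limma called 0, with 2 at an unadjusted p under 0.05 (both MMP9, above), and the per-probe test of the study's methods called 0 after adjustment. The shares of all probes that passed for HFCD against control were 0.0281% at 10 weeks, 0.0181% at 19 weeks and 0.0165% at 27 weeks in whole blood, and 0.0276% in white blood cells. For HFCSD against control they were 0.0123%, 0.0175% and 10.6% in whole blood, and 0.0366% in white blood cells. For HFCSD against HFCD, 0 of 16 tests passed by limma, with 0 at an unadjusted p under 0.05 and 0 by that per-probe test after adjustment. There 0% of all probes passed at 10 and 19 weeks and in white blood cells, and 0.0111% in 27-week whole blood.

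PGLYRP1 had the largest diet differences of the 4 tested genes. At 10 weeks HFCD was at −1.20 from control (SE 0.61, adjusted p = 0.522, limma), −1.53 (SE 0.54, adjusted p = 0.283) with the slide as a block, −2.39 to −0.86 within the 3 slides and higher in 0 of 3, but −0.22 (SE 0.58) with the share of present spots as a covariate. At 19 weeks the differences were 0.09 for HFCD and −0.73 for HFCSD, and with the slide as a block −0.68 (SE 0.97) and −1.12 (SE 1.12). With scan day as a block they were −1.85 (SE 1.19, adjusted p = 0.810, limma) and −2.67 (SE 1.23, adjusted p = 0.535). These last values rest on a single control array, replicate 1 at 11.68, the highest of all whole blood.

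At 27 weeks PGLYRP1 in whole blood was 1.17 higher with HFCSD than with control (SE 0.71, adjusted p = 0.266, limma). With the slide as a block it was 2.04 (SE 0.52) and passed (adjusted p = 0.0357, limma), where 14.2% of all probes passed. Slide 11 held control at 8.25 and HFCSD at 10.66 and 9.98, and slide 12 control at 8.03 and HFCSD at 9.99, so HFCSD was higher by 2.07 and 1.96 within them. Control replicate 4, the highest array, was on a slide without HFCSD. With the share of present spots as a covariate the difference turned to −0.57 (SE 0.59, adjusted p = 0.625, limma), and 0% of all probes passed. The HFCSD arrays had shares of 38.8% to 39.7%, and of the control arrays only replicate 4, at 38.9%, lay in that range. The covariate and this diet are therefore hard to tell apart here.

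Over the feeding periods, 0 of 24 tests of 19 or 27 against 10 weeks passed in whole blood by limma, with 0 at an unadjusted p under 0.05 and 0 by that per-probe test after adjustment. The background was larger here. At 19 weeks 12% of all probes passed in control, 6.92% in HFCD and 7.17% in HFCSD, and at 27 weeks 20.7%, 5.60% and 10.3%. Feeding period, the age of the pigs and scan day cannot be told apart. CXCR2 changed by −0.77 to 0.61, MMP9 by −0.82 to 0.28 and PGLYRP1 by −1.15 to 0.84, with signs that differed between diets and periods.

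LTF was above its 10-week mean in 6 of 6 comparisons, which share each diet's 10-week arrays, by 0.35 to 1.03 (SE 0.77 to 0.83, lowest adjusted p = 0.417, limma). Single arrays decided this direction for control, which was at −0.15 and −0.32 at 19 and 27 weeks without 10-week replicate 3, and at −0.22 at 27 weeks without replicate 1 of that week. HFCSD was at −0.05 at 19 weeks without replicate 2 of that week, and at −0.05 at 27 weeks without 10-week replicate 3. With HFCD the 27-week arrays (10.98 to 11.50) did not overlap the 10-week arrays (9.91 to 10.73), at 1.03 (SE 0.83, adjusted p = 0.521, limma). Fitted with only these 2 groups, LTF passed (adjusted p = 0.0494, limma), where 6.68% of all probes passed. LTF also passed the per-probe test, unadjusted and with a change over 2-fold, as did 8.26% of all probes. After adjustment that per-probe test did not call LTF. The SD of LTF was 0.34 and 0.29 in these 2 groups and 0.53 to 1.99 in the other 7 of whole blood.

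Spread within groups differed among the 4 bright probes. The pooled SD was 1.08 for LTF and 1.04 for PGLYRP1, higher than for 98.2% and 97.9% of the 12094 probes well above background on all arrays, whose median was 0.37. That of CXCR2 was 0.65 (higher than 90.2% of probes) and of MMP9 0.54 (82.8%). The range of the 12 group means was 4.46 for PGLYRP1 (98.1%), while 1.44 for CXCR2, 1.51 for MMP9 and 1.32 for LTF lay near the median of 1.30. Over the 9 whole blood means alone it was 1.22 for PGLYRP1, 1.41 for CXCR2, 0.83 for MMP9 and 1.32 for LTF. The median over probes was 0.86 there.

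The 4 genes did not vary as 1 block. Over the 12 group means Pearson's r was 0.49 between CXCR2 and MMP9, −0.47 between CXCR2 and PGLYRP1, −0.44 between MMP9 and PGLYRP1, −0.32 between CXCR2 and LTF, −0.17 between LTF and PGLYRP1 and −0.06 between MMP9 and LTF. Over the 9 whole blood means alone, the same pairs were at 0.46, −0.20, 0.23, −0.42, −0.02 and −0.48, so the sign for MMP9 and PGLYRP1 turned without the white blood cells. Over the 45 arrays, after subtracting each group's mean, all 6 values lay between −0.08 and 0.23. These points share slides and scan days, and the values are descriptions.

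Other named genes followed some of them closely. By Pearson's r over the 12 group means, among 1649 named probes, the genes most like CXCR2 were MAOA (0.95), PGD (0.95) and CD14 (0.93). Those most like PGLYRP1 were HNF4A, NGB and PYGM (0.99 each), and 150 probes had an r over 0.9 with it, against 4 for CXCR2 and 0 for MMP9 and LTF. For MMP9 they were KLF4 (0.79), TTL (0.76) and NEU1 (0.75), and for LTF ATP5L (0.89), TAF4B (0.85) and ATP5I (0.85). Array by array within groups, over the 45 arrays, other genes came highest, RGS2 (0.91), TGFA (0.88) and IL1RN (0.85) for CXCR2, RNF19A (0.95) for PGLYRP1, TFIP11 (0.57) for MMP9 and PMAP-23 (0.70), FUT1 (0.65) and NPG4 (0.61) for LTF.

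Other granule genes went in both directions between white blood cells and whole blood. Counts and medians of this and the following lists are over the 13105 probes above background on every array of 27 weeks, so that none entered through 1 kind of sample alone. Of all these probes, 21%, 23.8% and 32.4% were higher in white blood cells in control, HFCD and HFCSD and 20.3%, 19.5% and 20.2% lower, with medians of 0.09, 0.16 and 0.30. Of primary granules, 1 of 6 listed genes was on the array. This was BPI, which binds bacterial endotoxin, at 0.46 in control (adjusted p = 0.101, limma), 0.85 in HFCD (adjusted p = 0.00799) and 0.72 in HFCSD (adjusted p = 0.0167, limma). Of secondary and tertiary granules, 7 of 16 listed genes were on the array. Of 5 probes, 1 was higher and 1 lower in control, 0 and 1 in HFCD, and 0 and 2 in HFCSD, with medians of 0.91, 0.33 and 0.33. ARG1, arginase, was lower in all diets by probe A_72_P057696, at −3.02, −3.72 and −3.42 (highest adjusted p = 0.00263, limma). By its other probe, A_72_P176151, it was at −2.22 (adjusted p = 0.18, limma), −3.54 (adjusted p = 0.0488) and −4.10 (adjusted p = 0.0200, limma), and so did not pass in control. NPG4, a protegrin, was at −0.74 (adjusted p = 0.109), −0.29 and −1.34 (adjusted p = 0.00723, limma). LYZ, lysozyme, was at 1.08, 0.89 and 1.09 and passed in no diet (lowest adjusted p = 0.0788, limma). The S100 proteins of the neutrophil cytosol were not analysed here.

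Among other receptors of neutrophils, 3 of 11 listed genes were on the array. C5AR1, the complement C5a receptor, was lower in white blood cells, at −1.77 (adjusted p = 0.00825, limma), −2.69 and −3.77 (adjusted p = 1.71e-05, limma) in control, HFCD and HFCSD. The Fc receptor FCGR3A was at 0.48, 0.60 and 0.81 and passed in HFCD and HFCSD (adjusted p = 0.0373 and 0.00540, limma). TREM1, which amplifies inflammatory signals, was at 1.66, 1.31 and 0.82 and passed in control and HFCD (adjusted p = 0.00825 and 0.0421, limma). The list's medians were 0.48, 0.60 and 0.81.

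Genes of adhesion, the oxidase and inhibitors were also measured. ITGB2, the common chain of leukocyte integrins, was at 1.66, 1.74 and 1.53 by probe A_72_P198457, and at 0.23, 0.33 and 0.76 by probe A_72_P146616, which passed in HFCSD alone. Of the NADPH oxidase, which makes superoxide, 4 of 5 genes were on the array and 2, 0 and 2 of 4 probes were higher in control, HFCD and HFCSD. NCF1 was at 1.89 in control (adjusted p = 0.00740, limma), 1.39 and 0.83, CYBA at 0.80 (adjusted p = 0.0342, limma), 0.72 and 1.05 (adjusted p = 0.00940), and NCF4 at −0.09, 0.19 and 0.63, where the control value turns to 0.01 under 75th percentile scaling. NCF1 in HFCSD turned to −0.16 with the share of present spots as a covariate. Of inhibitors, 3 of 5 genes were on the array, and 0 of 4 probes above background on every array were higher in any diet by limma. TIMP1, which inhibits MMP9 and was above background on 3 of 4 control whole blood arrays, was at 1.24 (adjusted p = 0.00879, limma), 1.12 (adjusted p = 0.0240) and 0.65. Its control test was entered only through the white blood cells, so that call supports no conclusion.

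Relatives of the 5 genes and regulators of neutrophil formation were measured too. Of the relatives, 6 of 7 genes were on the array, and of 4 probes 1, 1 and 1 were higher and 1, 1 and 2 lower. CXCR4, which holds neutrophils in the marrow, was higher at 1.56, 1.25 and 1.44 (highest adjusted p = 0.0287, limma). CXCR3, a receptor of lymphocytes, was lower at −0.80, −1.52 and −2.48 (highest adjusted p = 0.0482, limma), and in 27-week whole blood it was 3.49-fold higher with HFCSD than with control (log2 1.80, SE 0.40, adjusted p = 0.0261, limma), where 10.6% of all probes passed. With the share of present spots as a covariate it did not pass, nor did any other probe. PGLYRP2, a relative of PGLYRP1, was at 0.17, −0.00 and −1.04 (adjusted p = 0.00253, limma, in HFCSD). Of the regulators, 4 of 6 genes were on the array, and of 2 probes 1, 2 and 2 were higher. The myeloid transcription factor CEBPA was higher in all diets at 1.33, 1.69 and 1.29, as was SPI1 at 1.51, 1.71 and 1.02, with 3 of 4 control whole blood arrays above background. SPI1 entered the control test only through the white blood cells, so its call there supports no conclusion. CEBPB was at 0.89, 1.40 and 1.85, the first of which did not pass. CSF3, the cytokine G-CSF, was at −1.18 in control, with 1 of 4 white blood cell arrays above background. It was at least 1.21-fold lower in HFCD, where it did not pass (adjusted p = 0.248, limma), and at least 3.12-fold lower in HFCSD. In these 2 diets CSF3 was above background on 0 of 4 white blood cell and 3 of 3 whole blood arrays. CSF3 thus entered the tests only through whole blood, where it is higher, and they support no conclusion.

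Markers of other blood cells were set in the same contrast. Of 13 T cell genes 7 were on the array, with 7, 5 and 7 of 10 probes higher in white blood cells, 0 lower and medians of 0.86, 0.75 and 1.06, where 21%, 23.8% and 32.4% of all probes were higher. CD3D by probe A_72_P185936 was at 1.90, 1.86 and 1.71, CD3G by probe A_72_P088461 at 1.58, 1.77 and 1.67, and CD2 by probe A_72_P178131 at 1.58, 1.41 and 1.04. That CD3D probe was above background on 3 of 4 control and 2 of 3 HFCSD whole blood arrays. In these 2 diets it entered only through the white blood cells, so its values there are not exact and support no conclusion. Other probes gave less, CD3D at −0.13, 0.19 and 0.63 by A_72_P014531 and CD2 at −0.37, −0.26 and −0.30 by A_72_P131826, which passed in no diet. The summed T cell level was 12.83 ± 0.14, 12.72 ± 0.37 and 12.60 ± 0.28 in control, HFCD and HFCSD whole blood (range over arrays 12.29 to 13.03) and 13.33 ± 0.36, 13.42 ± 0.39 and 13.56 ± 0.22 in white blood cells (12.80 to 13.89), with CD3D giving the strongest signal. Of 7 monocyte genes 5 were on the array, with 0, 0 and 1 of 7 probes higher, 0 lower and medians of 0.65, −0.02 and 0.37. CD68 by probe A_72_P117241 was at 3.58 and 3.93 in control and HFCD, with 3 of 4 and 1 of 3 whole blood arrays above background, and at least 11-fold higher in HFCSD. Its other probes did not pass, A_72_P231802 at −0.34, −0.07 and 0.37 and A_72_P295799 at −0.13, −0.14 and −0.06, so the change of CD68 depends on the probe. CD163 by probe A_72_P018171 was at 2.02, 2.26 and 2.52, with 3 of 4, 2 of 3 and 1 of 3 whole blood arrays above background, and FCGR1A at 2.85, 2.11 and 2.32, with 1 of 4, 3 of 3 and 1 of 3. Where whole blood was not above background throughout, these probes of CD68, CD163 and FCGR1A could enter only through the white blood cells. Such values are not exact and support no conclusion. The 3 CD163 probes above background on all 45 arrays were at 0.60 to 1.13 and passed once, A_72_P160596 in HFCSD. CD14 was at 0.65, −0.02 and −0.18 by probe A_72_P050971, which passed in no diet, and at 2.61, 1.47 and 0.50 by A_72_P088666, which passed in control (adjusted p = 0.0121, limma) with 3 of 4 whole blood arrays above background. In control A_72_P088666 entered the test only through the white blood cells, so this call supports no conclusion. The summed monocyte level, led by CD68, was 11.26 to 12.43 over whole blood arrays and 11.79 to 12.65 over white blood cell arrays.

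NK cell genes were 3 of 7 on the array, and 1 of 2 probes was higher in each diet, KLRK1 at 1.38, 1.57 and 2.10. PRF1 was at 2.25, 2.59 and 1.49, values that are not exact. It was above background on 3 of 4, 2 of 3 and 2 of 3 whole blood arrays and entered only through the white blood cells. GNLY, with the strongest signal of them, was at −0.48, −0.53 and −0.26 and did not pass, and the summed level was 14.30 to 15.70 in whole blood and 14.36 to 15.49 in white blood cells. Of 8 eosinophil and basophil genes 3 were on the array and 1 was higher in each diet, MS4A2 at 1.30, 1.46 and 1.17, while HDC was at 0.80, 1.38 and 1.30 and CCR3 at 0.64, 0.54 and −0.08, turning to 0.24 in the last under 75th percentile scaling. Their summed level, led by CCR3, was 8.89 to 9.66 in whole blood and 9.10 to 10.67 in white blood cells.

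Platelet genes, 5 of 8 on the array, gave 0 of 5 higher or lower in each diet by limma, with medians of −0.25, −0.34 and 0.32. PF4, with the strongest signal, was at −0.86, −0.63 and 0.68, and the summed level ran from 12.39 to 15.18 in whole blood and from 10.42 to 16.13 in white blood cells. Of 11 erythroid genes 1, HBA, was on the array. Its probe was above background on 1 of 45 arrays, a 19-week HFCSD array, and was at 1.35 to 3.31 in 27-week whole blood and 1.38 to 1.94 in white blood cells, so red cell RNA could not be followed. The 5 neutrophil genes summed to 14.55, 14.65 and 14.21 in control, HFCD and HFCSD whole blood and to 14.65, 14.96 and 14.55 in white blood cells. The part of these cell types in the PGLYRP1 ratio was not tested.

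Over the feeding periods, some probes of these lists passed in whole blood where the 5 genes did not. Of the 12855 probes above background on every whole blood array, 2.15% to 8.63% were lower and 1.98% to 11.4% higher than at 10 weeks in these 6 comparisons. Of 54 tests of T cell probes among them 12 were lower and 0 higher, such as CD3E in 27-week control (log2 −2.12, adjusted p = 0.000437, limma) and CD2 by probe A_72_P178131, at −1.69, in the same comparison. Of NK cell probes 4 of 12 tests were higher, all KLRK1, at 2.15 (adjusted p = 0.00385, limma) in 27-week control. Of inhibitor probes, 5 of 24 tests were higher, all in control. At 19 and 27 weeks IL1RN was at 0.94 and 0.92 and SLPI by probe A_72_P088391 at 1.61 and 1.59. SLPI by probe A_72_P163036, at 1.25 at 27 weeks, passed only when the tests were limited to these probes, and by probe A_72_P164656 it did not pass. In the same 27-week control comparison FCGR3A was at 0.68 (adjusted p = 0.0451, limma), CYBB at 0.82 and ITGB2 by probe A_72_P146616 at 0.58, all higher. CXCR4 was lower in control (−1.79 and −1.23) and HFCSD (−1.53 and −1.84) at both periods, and PGLYRP2 higher in 27-week HFCSD (1.65, adjusted p = 0.00478, limma).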

How the data were processed

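RNA of 33 whole blood samples (PAXgene) and 12 white blood cell samples (LeukoLock) was labelled with Cy3 and hybridized to porcine Agilent arrays by the authors. The deposited files give, for each spot, the processed intensity after the scanner software's background subtraction, and the flags of that software for spots well above background, outliers and saturation. The submitters' notes name Agilent Feature Extraction 9.5.3.1, while the deposited file headers name version 10.5.1.1. A deposited series table of normalized intensities, taken to log2, was used as an alternative.

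From the 43803 probe spots of each array, 1 to 31 outlier spots were left out, none was saturated, and repeated spots were averaged into 43603 probes. Log2 intensities were quantile normalized over the 45 arrays, the method the authors name. Genes were named by accession (2000 probes), gene name (688) or description (27) with RefSeq gene tables, assembly Sscrofa11.1. Groups came from the labels. limma 3.58.1 in R 4.3.3 tested each comparison (two-sided) across all probes well above background on every array of at least 1 group compared, with Benjamini-Hochberg adjustment at 0.05. Where a group was below background throughout, folds were bounded with the lowest signal called above background. Tables and figures were made in Python 3.11.15 (pandas 2.3.3, numpy 2.4.6, matplotlib 3.10.9, scipy 1.17.1). The fits were tested on simulated data.

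Alternatives were 75th percentile scaling, normexp with an offset of 50, the series table, other filters, all arrays or only 2 groups in a fit, blocks for replicate number, slide or scan day, the share of spots above background as a covariate, the t-test of the study's methods (p under 0.05, also with a change over 2-fold), and 100 refits without 1 array each.

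Of the other lists, up to 3 genes with the largest mean change between white blood cells and whole blood, and those past the threshold elsewhere, were named. Of these, 2 genes are not reported here, nor is 1 call of a ratio between diets that rests on a group below background. Likeness took the 3 genes with the highest Pearson's r over group means among named probes above background on at least 23 arrays. Genes named by within-group likeness, and CD14, CSF3, CXCL6 and HBA, fall outside this rule and were chosen after their values were seen. List counts over probes above background on every array were also chosen after that. The members and lists were chosen with earlier results of these data known.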

Additional observations from a re-analysis of the deposited data

Results flagged for a closer look

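LTF in 27-week control whole blood had 1 array far from the others. Replicate 1 was at 12.59, against 9.89 to 10.20 in the other control arrays (mean 10.00), and its gap to the nearest array was 0.886 of the group's range, above Dixon's critical value for groups of 4. This was 1 of 36 group values tested, and chance gives such a result in about 1 of 20 groups. The white blood cell control array with the same replicate number was at 12.60.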

How the results depend on the processing

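PGLYRP1 kept its direction and passed in all 3 diets under all 12 other settings and all 22 refits without 1 array. Its white blood cell to whole blood log2 ratio ranged without 1 array from −3.62 to −2.67 in control, −3.36 to −2.09 in HFCD and −3.91 to −3.57 in HFCSD. The number of passing tests of white blood cells against whole blood among the 5 genes was 3 to 4 without 1 array, and 4 with only the 2 groups compared. The added call was MMP9, in HFCSD where 53.8% and in HFCD where 44.7% of all probes passed. For diet against control the number was 1 with the slide as a fixed block, chosen after seeing the data. For feeding periods it was 1 with only the 2 groups compared and 1 with the unadjusted t-test and a change over 2-fold. The others stayed at 0.

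Directions of some ratios turned. With the share of present spots as a covariate, CXCR2 was at −0.09 in control and −0.48 in HFCSD, LTF at −0.02 in control and NCF1 at −0.16 in HFCSD. With 75th percentile scaling, CXCR2 was at 0.21 in HFCD, LTF at 0.25 in HFCSD, NCF4 at 0.01 and IL1RN at 0.13 in control, CCR3 at 0.24 in HFCSD and ITGA2B at 0.23 in HFCD. With normexp, LTF was at −0.04 and ITGA2B at 0.07 in HFCD. The cause was not tested.

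Without 1 array, ratios of control ranged for CXCR2 from −0.38 to 0.25, MMP9 −0.06 to 0.47, LTF −0.59 to 0.69, NCF4 −0.23 to 0.09, PPBP −0.15 to 1.62, IL1RN −0.46 to 0.02, PF4 −1.18 to 0.09 and SELP −1.0 to 0.85. Those of HFCD ranged for CXCR2 from −0.24 to 0.13, LTF −0.08 to 0.17, ITGA2B −0.88 to 1.24, PF4 −1.12 to 0.49, SELP −1.20 to 0.52 and NPG4 −0.50 to 0.06. Those of HFCSD ranged for CXCR2 from −0.09 to 0.59, LTF −0.31 to 0.22, CCR3 −0.32 to 0.09, ITGA2B −0.35 to 0.83, PF4 −0.19 to 1.34 and SELP −0.82 to 0.83. Of 1335 values of the other named genes under other settings, 1230 kept direction and side of the threshold, 74 no longer passed, 24 newly passed and 7 turned. Without 1 array these were 2410, 62, 16 and 20 of 2508. Of the 3 genes most like a member, 0 to 2 were shared under other measures.

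With a replicate block, CXCR2 in HFCD was at 0.13 and CCR3 in HFCSD at 0.09, PGLYRP1 at 27 against 10 weeks with HFCSD turned from 0.21 to −0.05, and no count of calls among the 5 genes changed. Of 41 pairs of arrays with the same number and diet, 26 had a correlation of deviations over 0.1 (range −0.44 to 0.62 over 12094 probes) and 21 correlated best with their own number. Between diets, where the animals differ, 15 of 43 pairs were over 0.1 and 13 correlated best with their own number. With HFCSD all 3 pairs of 10 and 27 weeks (0.19 to 0.50) and of 19 and 27 weeks (0.22 to 0.48) were over 0.1. No other pair of groups within a diet had this, so the numbers were not taken as pairing. Signal over background limits CXCR1 and HBA, which were tested in no comparison.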
